A study of Mus musculus with 18 samples.

Results

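Gene expression was compared between K19R and FLAG-WT embryoid bodies on day 6 of differentiation. Embryoid bodies are aggregates in which mouse embryonic stem cells (mESCs) differentiate in suspension. The comparison took the 2 K19R and 2 FLAG-WT libraries that the labels place at day 6, so 4 of the series' 18 libraries, and all genes of the count table. The series asks, by its title, how acetylation of EED by CBP and P300 bears on PRC2 targeting and on mESC differentiation. Both lines are knock-in mESCs whose EED carries a FLAG tag. K19R has arginine in place of lysine 19 of EED, a change that removes the side chain an acetyltransferase can modify, and FLAG-WT has the wildtype sequence. Up to day 0 both were grown with leukemia inhibitory factor (LIF) and 2i, the MEK and GSK3 inhibitors. Both then formed bodies on low-attachment plates on a rotary shaker, in differentiation medium lacking LIF and 2i, so the lines shared the tag, the culture and the time. The sources used here do not say how many clones stand behind each line.

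EED is the subunit of Polycomb repressive complex 2 (PRC2) that binds methylated histone H3 and stimulates the complex's methyltransferase, EZH2 or EZH1. PRC2 marks the promoters of silent developmental regulators. In an embryoid body the outer cells become primitive and then visceral endoderm, which rests on a basement membrane, takes up nutrients by endocytosis and secretes the serum proteins later made by the liver. The inner cells leave pluripotency through an epiblast-like state and go on to the germ layers.

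At day 6 the K19R bodies held less visceral endoderm mRNA and more pluripotency mRNA than the FLAG-WT bodies. Of 28 visceral endoderm serum and lipid carrier genes tested, 24 were lower in K19R bodies and none was higher. Of 12 core pluripotency genes, 9 were higher, among them Nanog, Sox2 and Pou5f1. Neuronal genes (13 of 19 tested) and mesenchymal genes (15 of 21) were higher in K19R bodies, most of them from low levels. Of 30 Hox genes, 15 were lower and none was higher. For comparison, 28.4% of all genes tested were higher and 30.1% lower. Eed itself did not pass the test.

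The 4 libraries held 22985623 and 27031000 counts in K19R bodies and 28169697 and 20452195 in FLAG-WT bodies. More gene names had a count in K19R bodies (24511 and 24519) than in FLAG-WT bodies (22583 and 21614). Ribosomal protein genes took 6.77% and 6.92% of the counts in K19R bodies and 4.60% and 4.44% in FLAG-WT bodies, and mitochondrial genes 1.89% and 1.55% in K19R and 2.50% and 2.24% in FLAG-WT bodies. Y-linked genes also separated the lines. Eif2s3y, an X-Y pair gene for a translation initiation subunit, had 53.9 and 55.1 CPM in K19R bodies, against 4.59 and 4.38 CPM in FLAG-WT bodies. Its mean was 33.1 ± 0.289 CPM in K19R mESCs and 4.36 ± 0.0759 CPM in FLAG-WT mESCs (SD, n = 2 each), so the gap was present before differentiation. Of the genes on the Y chromosome, 6 were higher in K19R bodies at day 6 (Ddx3y, Eif2s3y, Uty, Kdm5d, Zfy1 and Uba1y) and 1 predicted gene, Gm47283, was lower (log2 fold change -0.80 ± 0.13). This gap follows the lines, and its part in the other differences cannot be told apart from that of the genotype. Xist, the RNA that coats an inactive X chromosome, had 2.97 and 3.2 CPM in K19R bodies, against 28.4 and 29.2 CPM in FLAG-WT bodies (log2 fold change -3.22 ± 0.14). Counts were made without a strand option, so Xist cannot be separated fully from its antisense partner Tsix. Of 702 X-linked genes tested, 25.1% were higher and 30.2% lower in K19R bodies.

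Levels are in CPM, the read count of a gene relative to its library size, scaled by the trimmed mean of M-values (TMM), which sets the libraries on a common scale from genes of middling change. Fold changes are log2 of K19R over FLAG-WT with the standard error, and a gene was called where the adjusted p of edgeR's quasi-likelihood test over all genes was under 0.05. Whether the 2 libraries of a group stem from separate cultures is not in the labels, and the p-values then reflect only how far these libraries differ, which may be technical. Of 19092 genes tested, 11172 were called (58.5%). Those higher in K19R bodies were 5429 (28.4%) and those lower 5743 (30.1%), with a median log2 fold change of 0.02 over all genes. With a change of at least 2-fold as well, 2978 genes were higher (15.6%) and 1712 lower (8.97%). This balance depended on the scaling. With library totals only, 8581 genes were higher (44.9%) and 3189 lower (16.7%), and the median of all genes moved by 0.36 to 0.38. The TMM factors were 1.085 and 1.051 in K19R bodies and 0.827 and 0.838 in FLAG-WT bodies. The genes tested were selected over all 16 FLAG-EED libraries. With the day 6 libraries alone 16330 genes were tested, of which 34.9% were higher and 33.3% lower.

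The median log2 fold change fell with the level of a gene under both scalings, and turned negative only under TMM. Genes were put in 5 equal groups by mean level. In the lowest group, 19.7% were higher and 3.90% lower in K19R bodies, with a median log2 fold change of 0.77. In the highest group, 17.2% were higher and 62.3% lower, with a median of -0.35. Under library totals only, the medians of these groups were 1.12 and 0.01. The 50 most abundant genes of each library took 15.4% and 15.7% of its counts in K19R bodies and 18.7% and 18.7% in FLAG-WT bodies.

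**Figure D1:**
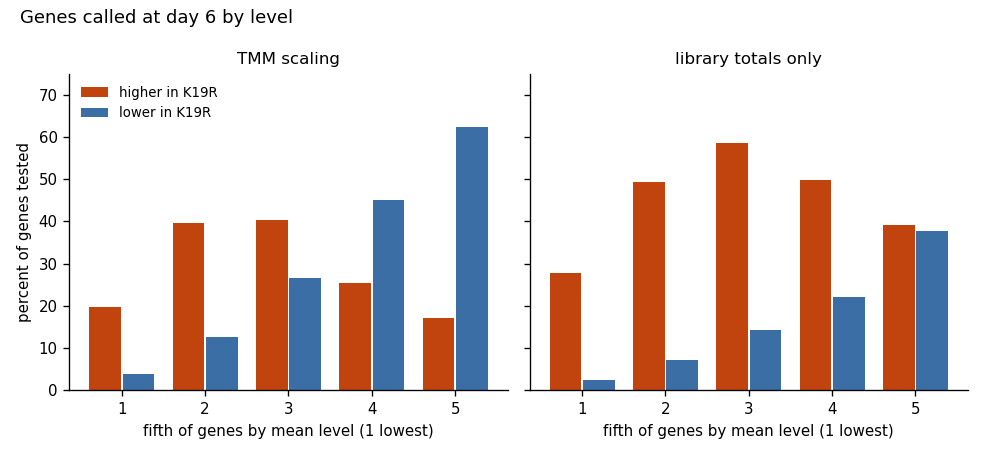
Percent of the genes tested that were higher (orange) or lower (blue) in K19R bodies at day 6, in 5 equal groups of genes by their mean CPM, under TMM scaling (left) and library totals only (right). Under TMM, 62.3% of the genes of the highest group were lower; under library totals 37.7% were lower and 39.2% higher.

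The serum and lipid carrier genes of visceral endoderm were lower in K19R bodies as a group. Those called numbered 24 of 28 tested, against 30.1% of all genes, all 24 by at least 2-fold. Like all gene lists here, this list was chosen with earlier results of these data known. It was not compared with genes of matched level, and 62.3% of the highest of the 5 level groups were lower. The list's median log2 fold change was -1.98 (-1.63 with library totals only). Together the list took 1.09% and 1.00% of the counts in K19R bodies and 2.90% and 2.93% in FLAG-WT bodies. In bulk RNA, fewer cells of a type and less RNA per cell cannot be told apart.

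To show the control regions of genes in this group, the 150 bases before the RefSeq transcription start (GRCm38.p6) are given for 4 of them, which encode fetal serum proteins. Afp is alpha-fetoprotein, Fgb and Fga are chains of fibrinogen, and Gc is the vitamin D carrier. The capitals mark GTTAAT or its reverse complement ATTAAC, a hexamer known from promoters of liver-expressed genes. All 4 hold it and members without it are not shown, so their matches are no test.
Afp, chr5:90490564-90490713, + strand: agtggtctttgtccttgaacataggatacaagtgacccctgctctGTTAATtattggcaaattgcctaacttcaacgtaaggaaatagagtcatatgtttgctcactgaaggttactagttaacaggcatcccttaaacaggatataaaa
Fgb, chr3:83049864-83050013, - strand: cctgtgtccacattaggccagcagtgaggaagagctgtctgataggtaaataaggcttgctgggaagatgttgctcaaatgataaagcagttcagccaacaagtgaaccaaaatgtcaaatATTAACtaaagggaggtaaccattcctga
Fga, chr3:83026003-83026152, + strand: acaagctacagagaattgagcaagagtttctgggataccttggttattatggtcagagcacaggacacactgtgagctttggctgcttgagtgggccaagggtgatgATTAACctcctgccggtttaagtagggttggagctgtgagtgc
Gc, chr5:89457899-89458048, - strand: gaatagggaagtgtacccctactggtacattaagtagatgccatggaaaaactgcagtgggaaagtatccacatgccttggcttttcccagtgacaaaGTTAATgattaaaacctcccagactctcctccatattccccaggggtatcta

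These letters begin 105 bases before the start of Afp, 29 before Fgb, 43 before Fga and 52 before Gc. Of 27025 mouse promoters in the RefSeq table, 1762 hold the hexamer on either strand in the 250 bases before the start (6.52%). In the serum protein list it stood in 10 of the 26 promoters found, 6 of them among 21 genes that were lower in K19R bodies. It was also found before Alb, Apoc2 and Vtn, which did not pass, and not before Apoe, Rbp4 or Apoa2, which were lower. A match of letters is a description and does not show binding.

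Apoe (chromosome 7, 19696109 to 19699188, GRCm38), the apolipoprotein that carries lipid to receptors, had 2899.9 and 2933 CPM in K19R bodies, against 12540.2 and 11738 CPM in FLAG-WT bodies. All K19R libraries lay below all FLAG-WT libraries, with a log2 fold change of -2.06 ± 0.13 (adjusted p = 1.0e-12). Rbp4, the plasma carrier of retinol, had 891 and 779.5 CPM in K19R bodies, against 4477 and 4550.1 CPM in FLAG-WT bodies (log2 fold change -2.43 ± 0.21). Apoa2, a protein of high-density lipoprotein, had the largest fall in this list among genes with counts in all 4 libraries, with 41.9 and 29.8 CPM in K19R bodies, against 296 and 289 CPM in FLAG-WT bodies (-3.03 ± 0.16, adjusted p = 2.7e-14). Gc had 5.29 and 5.03 CPM in K19R bodies, against 35.8 and 32.6 CPM in FLAG-WT bodies (-2.73 ± 0.15). The fibrinogen chains moved together, with a log2 fold change of -2.27 for Fgb and -1.88 for Fga. Fgb had 77.5 and 67.9 CPM in K19R bodies, against 342 and 361 CPM in FLAG-WT bodies, and Fga 39.9 and 30.3 CPM in K19R bodies, against 119.5 and 139 CPM in FLAG-WT bodies.

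Some of the most abundant members had wider error. Afp had 2551 and 2293 CPM in K19R bodies, against 6208 and 6512 CPM in FLAG-WT bodies, which do not overlap, with a log2 fold change of -1.39 ± 0.46 (adjusted p = 0.011). The adjusted p of Afp was 0.11 with DESeq2, 0.058 with library totals only and 0.064 without the second K19R library. Ttr, the thyroxine carrier, and Apoa1, the main protein of high-density lipoprotein, were called by edgeR (log2 fold changes -2.15 ± 0.27 and -1.50 ± 0.25) and not by DESeq2 (adjusted p = 0.11 and 0.18). The spread is shared over all 16 libraries of the fit, and Afp averaged 28.4 ± 37.6 CPM in the FLAG-WT mESCs. The 4 members that did not pass, Alb, Apoc2, Ahsg and Vtn, ran from 0.106 to 1.76 CPM over the 4 libraries. Serpina1b, which has near-identical copies, had no count in K19R bodies and 8 in FLAG-WT bodies, so it was at least 1.66-fold lower with the floor set at 3 counts in each library.

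Genes for uptake and digestion in visceral endoderm were lower as well. Of 19 tested, 18 were lower in K19R bodies and 1 was higher, against 30.1% and 28.4% of all genes. The median log2 fold change of the list was -1.56 (-1.20 with library totals only). Lgmn, a lysosomal protease, had 991 and 1052 CPM in K19R bodies, against 4431 and 4282 CPM in FLAG-WT bodies (log2 fold change -2.09 ± 0.09, adjusted p = 6.3e-16). Lamp1, a lysosomal membrane protein, had 704 and 732 CPM in K19R bodies, against 2425 and 2361 CPM in FLAG-WT bodies (-1.74 ± 0.07). The scavenging receptor Cubn, which binds its ligands in complex with Amn, had 1652 and 1687 CPM in K19R bodies, against 3840.2 and 4176 CPM in FLAG-WT bodies (-1.26 ± 0.24), and its DESeq2 adjusted p was 0.076. No library of one line reached the range of the other for these genes. Amn, needed to bring Cubn to the surface, had 159 and 171 CPM in K19R bodies, against 621 and 582 CPM in FLAG-WT bodies (-1.87 ± 0.10). Lrp2, the large receptor that partners Cubn, differed less, with 736 and 809 CPM in K19R bodies, against 1065 and 1107 CPM in FLAG-WT bodies (-0.49 ± 0.11), and did not pass with library totals only (adjusted p = 0.28). The exception was Tfrc, the transferrin receptor, with 66.1 and 58.6 CPM in K19R bodies, against 14.5 and 16.6 CPM in FLAG-WT bodies (2.01 ± 0.09).

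**Figure D2:**
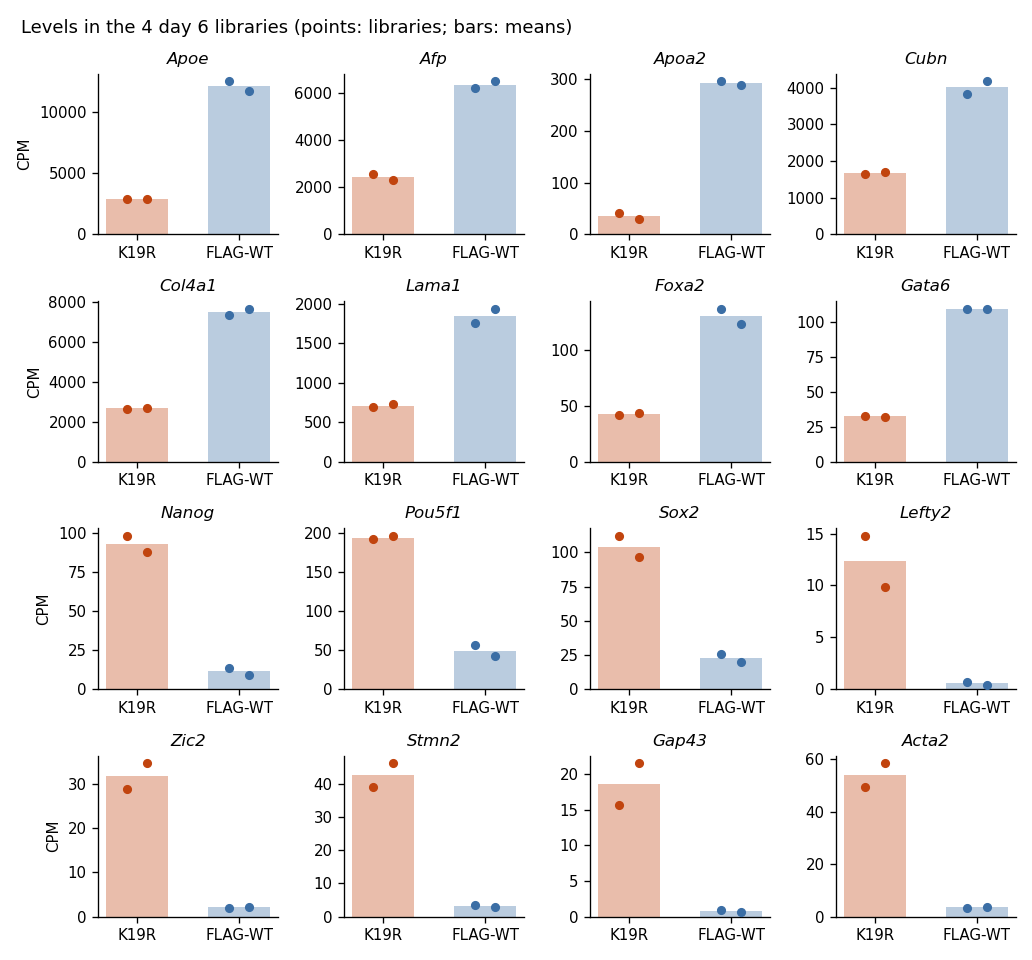
CPM of 16 genes in the 4 day 6 libraries, K19R left and FLAG-WT right; points are libraries and bars their means. In all 16 panels the points of the lines do not overlap: the 8 endoderm and basement membrane genes of the upper rows were lower in K19R bodies, and the 8 genes of the lower rows higher.

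Basement membrane and parietal endoderm genes followed the same direction. Of 18 tested, 15 were lower and 1 higher in K19R bodies, against 30.1% and 28.4% of all genes. Their median log2 fold change was -1.11 (-0.75 with library totals only). Col4a1, a chain of the type IV collagen network, had 2644 and 2708 CPM in K19R bodies, against 7361 and 7677 CPM in FLAG-WT bodies (log2 fold change -1.49 ± 0.09, adjusted p = 2.2e-13). Col4a2, its partner chain, is transcribed from the opposite strand of a shared promoter and had 1462 and 1509 CPM in K19R bodies, against 4293 and 4381 CPM in FLAG-WT bodies (-1.55 ± 0.08). The laminin chain Lama1 had 691 and 728 CPM in K19R bodies, against 1759 and 1936 CPM in FLAG-WT bodies (-1.38 ± 0.13). These 3 genes separated the lines in every library. Sparc, a collagen-binding matrix protein, had 3058 and 3102 CPM in K19R bodies, against 9145 and 9227 CPM in FLAG-WT bodies (-1.58 ± 0.08). The perlecan gene Hspg2 did not pass (-0.05 ± 0.14), and Fst, a secreted activin antagonist, was higher in K19R bodies (1.50 ± 0.20).

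Among the transcription factors of endoderm, 11 of 18 tested were lower and 2 higher in K19R bodies, against 30.1% and 28.4% of all genes. Their median log2 fold change was -0.75 (-0.39 with library totals only). Gata6, which sets primitive endoderm fate, had 32.8 and 32.1 CPM in K19R bodies, against 109 and 109 CPM in FLAG-WT bodies (log2 fold change -1.75 ± 0.08, adjusted p = 1.0e-15). Foxa2, a forkhead factor of definitive and visceral endoderm, had 41.9 and 43.5 CPM in K19R bodies, against 137 and 123 CPM in FLAG-WT bodies (-1.61 ± 0.10). Hnf4a, a nuclear receptor that drives serum protein genes, had 133 and 124 CPM in K19R bodies, against 272 and 261 CPM in FLAG-WT bodies (-1.05 ± 0.14). Both lines expressed all 3, and the K19R libraries lay below the FLAG-WT ones. Gata4 and Sox17, which act beside Gata6, differed by less than 2-fold (-0.77 ± 0.08 and -0.72 ± 0.11). Sox7 and Hhex did not pass (-0.21 ± 0.12 and -0.16 ± 0.15). The 2 higher members were Prdm1 (0.80 ± 0.18) and Sall4 (0.20 ± 0.08), which also belongs to the pluripotency network. Sall4 lost its call without the second K19R library and without the second FLAG-WT library (adjusted p = 0.18 and 0.33), which left 1 higher member.

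**Figure D3:**
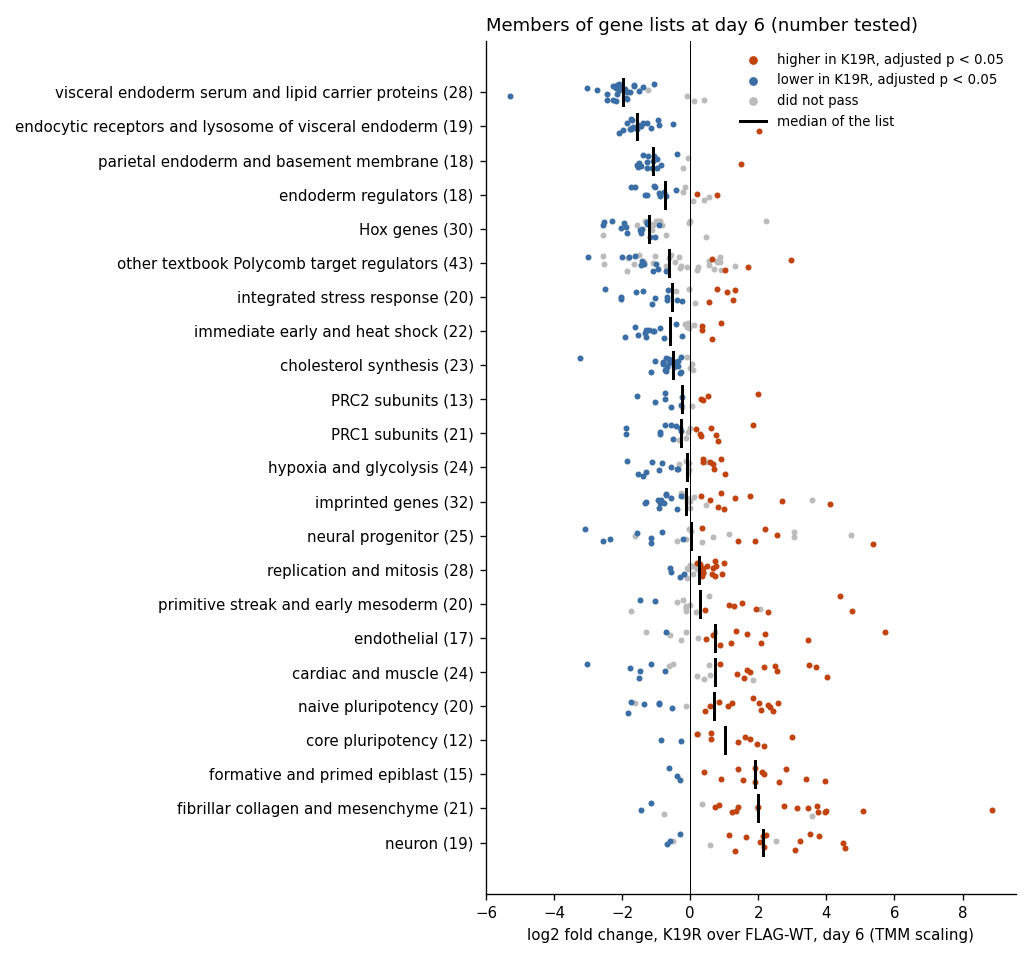
Log2 fold change (K19R over FLAG-WT, day 6, TMM scaling) of each tested member of 23 gene lists; the black bar is the list's median, orange and blue are members called higher and lower. Medians run from -1.98 in the serum protein list to 2.15 in the neuron list; with library totals only, every gene shifts to the right by about 0.36, and the medians of the PRC2, PRC1, hypoxia and imprinted lists become positive. Fitted values of genes with a group at 0 counts depend on the prior count.

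Pluripotency genes were higher in K19R bodies. Of 12 core genes, 9 were higher and 2 lower, against 28.4% and 30.1% of all genes, with a median log2 fold change of 1.02. The list took 0.193% and 0.184% of the counts in K19R bodies and 0.114% and 0.106% in FLAG-WT bodies. Nanog (chromosome 6, 122707489 to 122714633, GRCm38), the homeobox factor of the naive network, had 98.1 and 87.8 CPM in K19R bodies, against 13.6 and 9.28 CPM in FLAG-WT bodies. Its log2 fold change was 2.99 ± 0.13 (adjusted p = 3.5e-16). Pou5f1, the POU factor Oct4, had 192 and 196 CPM in K19R bodies, against 56.5 and 41.9 CPM in FLAG-WT bodies (1.97 ± 0.10). Sox2, its partner, had 112 and 96.4 CPM in K19R bodies, against 25.9 and 19.9 CPM in FLAG-WT bodies (2.17 ± 0.10). In none of the 3 did a FLAG-WT library reach a K19R library. The 2 lower members were Lin28a, with 324 and 332 CPM in K19R and 604 and 584 CPM in FLAG-WT bodies (-0.86 ± 0.08), and L1td1 (-0.27 ± 0.10), whose sign turned with library totals only (0.09). L1td1 also lost its call without the second K19R library and without the first FLAG-WT library (adjusted p = 0.19 and 0.17), which left 1 lower member. At the same time the serum protein list took less of the counts in K19R bodies (1.09% and 1.00%, against 2.90% and 2.93% in FLAG-WT bodies), and its part in the pluripotency values was not tested.

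The Nanog promoter is shown because it holds the composite site at which Oct4 and Sox2 are known to act together. The 150 bases before its RefSeq start (GRCm38.p6) are given, with the site in capitals. The hexamer ATTAAC also occurs in this stretch and is left in small letters.
Nanog, chr6:122707339-122707488, + strand: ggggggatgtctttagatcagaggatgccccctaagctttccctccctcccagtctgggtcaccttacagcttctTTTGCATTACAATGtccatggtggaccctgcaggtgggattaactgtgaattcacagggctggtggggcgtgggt

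The site was searched on both strands as CATTGT, any 1 base and ATGCAAA, and begins 75 bases before the start. It was found in the 250 bases before the start of 1 of 27025 promoters (0.0037%), that of Nanog, and in none of the other 8 core genes with a promoter in the table. Outside the 1 free base the search allowed no mismatch. Nanog was chosen for holding the site, so its match is no test. A lack of these letters in that window draws nothing about the factors there.

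The naive genes split. Of 20 tested, 12 were higher and 6 lower in K19R bodies, against 28.4% and 30.1% of all genes (median log2 fold change 0.71). Esrrb, an orphan nuclear receptor of the naive state, had 82.1 and 68.9 CPM in K19R bodies, against 17.9 and 12.6 CPM in FLAG-WT bodies (log2 fold change 2.28 ± 0.13, adjusted p = 5.6e-14). Nr5a2, Dppa3, Prdm14 and Tcl1 were higher by log2 fold changes of 2.59, 2.43, 2.36 and 2.09. Fgf4, the ligand with which epiblast cells signal to primitive endoderm, had 55.7 and 41.3 CPM in K19R bodies, against 13.4 and 10.3 CPM in FLAG-WT bodies (2.01 ± 0.14). Lower instead were Klf4, with 29.6 and 26.1 CPM in K19R bodies, against 96.6 and 98.8 CPM in FLAG-WT bodies (-1.81 ± 0.09), and Klf2, Klf5, Tfcp2l1, Socs3 and Tbx3. Klf4 and Klf5 are Krüppel-like factors also expressed in epithelia. The log2 fold changes of these 5 ran from -1.73 for Klf2 to -0.53 for Tbx3, which did not pass with library totals only.

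Formative and primed epiblast genes were higher too, with 12 of 15 higher and 3 lower in K19R bodies, against 28.4% and 30.1% of all genes. Their median log2 fold change was 1.89. Otx2, the homeobox factor of the epiblast, had 73.8 and 78.4 CPM in K19R bodies, against 13.9 and 10.9 CPM in FLAG-WT bodies (log2 fold change 2.61 ± 0.11, adjusted p = 2.4e-16). Zic2, a zinc finger factor of the primed state and the neural plate, had 28.9 and 34.6 CPM in K19R bodies, against 1.89 and 2.22 CPM in FLAG-WT bodies (3.96 ± 0.15). Lin28b, which blocks let-7 maturation, had 23.9 and 26.5 CPM in K19R bodies, against 2.45 and 2.33 CPM in FLAG-WT bodies (3.39 ± 0.15). The FLAG-WT levels of Zic2 and Lin28b were close to 2 CPM in both libraries. Fgf5, the classical epiblast ligand, was low in both lines, with 5.86 and 5.17 CPM in K19R and 1.72 and 1.17 CPM in FLAG-WT bodies (1.89 ± 0.21). The 3 lower members were Etv4, Dnmt3a and Etv5 (-0.62, -0.38 and -0.29), and Etv5 turned positive with library totals only (0.07), where 1 member was lower.

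Primitive streak genes were low in both lines at day 6. Of 20 tested, 8 were higher and 2 lower in K19R bodies (median log2 fold change 0.30), against 28.4% and 30.1% of all genes. T, the brachyury gene of the streak, had 42 counts over the K19R libraries and 1 over the FLAG-WT libraries, a ratio of 31.8 after scaling with an exact 95% interval of 5.41 to 1287 for counting error. Lefty2, a secreted Nodal inhibitor, had 14.8 and 9.85 CPM in K19R bodies, against 0.687 and 0.408 CPM in FLAG-WT bodies (log2 fold change 4.41 ± 0.31, adjusted p = 4.5e-12). Nodal itself had 15.1 and 9.71 CPM in K19R and 10.1 and 7.99 CPM in FLAG-WT bodies, which overlap (0.43 ± 0.15), and its co-receptor gene Tdgf1 45.1 and 37.7 CPM in K19R and 15.6 and 8.29 CPM in FLAG-WT bodies (1.75 ± 0.16). Foxh1, the partner of Smad2 and Smad3 in Nodal signalling, had 38.1 and 43.3 CPM in K19R bodies, against 11.3 and 10.0 CPM in FLAG-WT bodies (1.92 ± 0.10), while Smad2 itself was lower (-1.27 ± 0.07). Eomes and Kdr did not pass (-0.12 ± 0.15 and -0.11 ± 0.28), and Pdgfra, a receptor shared by mesoderm and primitive endoderm, was lower (-1.47 ± 0.08).

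Mesenchymal genes were higher in K19R bodies, 15 of 21 tested, with 2 lower, against 28.4% and 30.1% of all genes. Their median log2 fold change was 2.00 (1.68 with genes at 0 counts in a group at their bound). Acta2, smooth muscle actin, had 49.4 and 58.4 CPM in K19R bodies, against 3.22 and 3.79 CPM in FLAG-WT bodies (log2 fold change 3.96 ± 0.14, adjusted p = 3.0e-17). The fibrillar collagen Col1a1 had 10.7 and 15.3 CPM in K19R bodies, against 0.858 and 1.11 CPM in FLAG-WT bodies (3.75 ± 0.28), and Col6a1, a chain of beaded-filament collagen, 8.46 and 7.99 CPM in K19R bodies, against 0.644 and 0.35 CPM in FLAG-WT bodies (3.98 ± 0.30). Postn, a matrix protein of mesenchyme, had 126 counts in K19R bodies and none in FLAG-WT bodies, at least 15.6-fold higher by the same floor. Col3a1 had 9 counts in K19R bodies and 0 in FLAG-WT bodies, at least 1.09-fold higher. The 2 lower members were Fn1, the fibronectin gene, with 904 and 879 CPM in K19R bodies, against 1856 and 2118 CPM in FLAG-WT bodies (-1.16 ± 0.11), and Twist1 (-1.45 ± 0.13). Lum had no count in any of the 4 libraries. The list's summed share of counts, Fn1 included, was 0.121% and 0.118% in K19R bodies and 0.161% and 0.185% in FLAG-WT bodies.

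Neuronal genes were higher in K19R bodies. Of 19 neuron genes tested, 13 were higher, all by at least 2-fold, and 3 lower, against 28.4% and 30.1% of all genes. Their median log2 fold change was 2.15. Stmn2, a microtubule regulator of growing axons, had 39.3 and 46.2 CPM in K19R bodies, against 3.35 and 2.8 CPM in FLAG-WT bodies (log2 fold change 3.78 ± 0.14, adjusted p = 2.8e-17). Gap43, a growth cone protein, had 15.7 and 21.5 CPM in K19R bodies, against 0.858 and 0.700 CPM in FLAG-WT bodies (4.55 ± 0.23). The dendritic Map2 had 12 and 13.2 CPM in K19R bodies, against 1.42 and 1.58 CPM in FLAG-WT bodies (3.08 ± 0.22). All 3 separated the lines, with every FLAG-WT library under 4 CPM. Snap25, a synaptic vesicle fusion protein, had 65 counts in K19R and 2 in FLAG-WT bodies, a ratio of 24.6 with an exact 95% interval of 6.55 to 208. Dcx, a marker of migrating neurons, had no count in the 4 libraries. The lower members Onecut2, Nefl and Nefm (-0.69, -0.58 and -0.30) were none of them called lower with library totals only, and Nefm turned positive there (0.06). Without the first K19R library, or without the first FLAG-WT library, 1 neuron gene was called lower.

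Of 25 neural progenitor genes, 6 were higher and 8 lower in K19R bodies, with a median log2 fold change of 0.01. These shares were near those of all genes (28.4% and 30.1%). Among those higher were Zic5 (2.55 ± 0.12), Sox11 (2.19 ± 0.11), Irx3 (1.89 ± 0.24), Nes (0.35 ± 0.08) and Neurog3, at 11 counts in K19R and 0 in FLAG-WT bodies. Neurog3 was thereby at least 1.42-fold higher, and its call was lost without the first K19R library and without either FLAG-WT library (adjusted p = 0.16, 0.087 and 0.053). Lower by the most was Pax3, a paired-box factor of the dorsal neural tube, with 0.16 and 0.317 CPM in K19R bodies, against 2.75 and 1.4 CPM in FLAG-WT bodies (-3.10 ± 0.47). Lhx2 and Emx2, forebrain homeobox factors, were lower too (-2.34 ± 0.29 and -2.56 ± 0.60). Sox1 and Pax6, which define neural progenitors, did not pass and were at 0.160 to 1.37 CPM. Without the first FLAG-WT library, 5 progenitor genes were lower, and with library totals only 8 were higher and 5 lower.

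Contractile and vessel genes showed mixed sets. Of 24 cardiac and muscle genes, 11 were higher and 6 lower in K19R bodies (median log2 fold change 0.72), against 28.4% and 30.1% of all genes. Fewer were called higher without the first FLAG-WT library. Actc1, cardiac actin, had 11.8 and 14 CPM in K19R bodies, against 0.987 and 0.525 CPM in FLAG-WT bodies (log2 fold change 4.03 ± 0.35), and Des, the intermediate filament desmin, 46.2 and 55 CPM in K19R bodies, against 9.14 and 7.88 CPM in FLAG-WT bodies (2.56 ± 0.14). Myl3, a myosin light chain, went the other way, with 18.1 and 16.5 CPM in K19R bodies, against 137 and 144 CPM in FLAG-WT bodies (-3.02 ± 0.10, adjusted p = 1.2e-17), as did Tnnc1, the slow troponin C (-1.77 ± 0.10). Nkx2-5, a defining cardiac factor, was low in both lines and called lower, with 0.16 and 0.246 CPM in K19R and 0.73 and 0.408 CPM in FLAG-WT bodies (-1.49 ± 0.61), but not with library totals only (adjusted p = 0.11). Nppa had no count. Of 17 endothelial genes, 10 were higher and 1, Egfl7, lower, against the same shares of all genes. Fewer were called higher without the first K19R library or without either FLAG-WT library. Pecam1, an adhesion molecule of endothelium that mESCs also express, had 38.7 and 30.9 CPM in K19R bodies, against 11.8 and 9.86 CPM in FLAG-WT bodies (1.67 ± 0.12), and Erg had 14 counts in K19R and 0 in FLAG-WT bodies, at least 1.72-fold higher. The defining receptor gene Kdr did not pass.

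Hox genes, textbook targets of PRC2, were lower in K19R bodies where called. Of 30 tested, 15 were lower, none was higher and 15 did not pass, against 30.1% lower and 28.4% higher among all genes. The median log2 fold change of the list was -1.22 (-0.86 with library totals only). Levels were low. Hoxb4, at the 3′ side of its cluster, had 2.69 and 3.69 CPM in K19R bodies, against 8.11 and 7.47 CPM in FLAG-WT bodies (log2 fold change -1.28 ± 0.21, adjusted p = 9.0e-06). Hoxb8, an anterior-posterior patterning factor of the trunk, had 0.441 and 0.528 CPM in K19R bodies, against 2.06 and 1.98 CPM in FLAG-WT bodies (-2.05 ± 0.39), and Hoxc10 0.241 and 0.0704 CPM in K19R and 1.07 and 0.700 CPM in FLAG-WT bodies (-2.55 ± 0.57). In these 3 genes each K19R library lay below each FLAG-WT library. Hoxb2, not tested, had no count in K19R bodies and 7 in FLAG-WT bodies, at least 1.74-fold lower. When 1 library was left out, 10 to 12 Hox genes were lower.

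Of 43 other Polycomb target regulators tested, 11 were lower and 4 higher in K19R bodies, so the share called in either direction was below that of all genes (58.5%). Low-level genes were called less often, with 19.7% higher and 3.90% lower in the lowest of the 5 level groups. The list was not compared with genes of matched level. The list's median log2 fold change was -0.63 (-0.27 with library totals only, where 10 were lower and 7 higher). Foxf1, a factor of splanchnic mesoderm, had 0.842 and 0.669 CPM in K19R bodies, against 5.49 and 6.65 CPM in FLAG-WT bodies (log2 fold change -3.00 ± 0.27), and Meis2, a Hox cofactor, 3.77 and 3.48 CPM in K19R bodies, against 14.1 and 15.2 CPM in FLAG-WT bodies (-2.01 ± 0.13). Cdkn2a, the Ink4a/Arf locus, had 24 and 27 CPM in K19R bodies, against 67.3 and 73.1 CPM in FLAG-WT bodies (-1.46 ± 0.08). Among the 4 higher genes were Wt1, Gata3 and Pax8 (2.95, 1.01 and 0.65). Of the others, 28 did not pass, most of them with a mean of 1 CPM or less.

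The PRC2 genes themselves changed in both directions. Eed (chromosome 7, 89954654 to 89980983, GRCm38) had 44.3 and 44.5 CPM in K19R bodies, against 46.3 and 39.1 CPM in FLAG-WT bodies, and its log2 fold change was 0.05 ± 0.08 (adjusted p = 0.61). The lines overlapped for Eed, although with library totals only it passed as higher (0.41). The counts cannot tell the K19R from the wildtype allele. Of 13 PRC2 genes tested, 4 were higher and 7 lower in K19R bodies, against 28.4% and 30.1% of all genes. Their median log2 fold change was -0.25, and 0.11 with library totals only. Epop, a subunit that links PRC2 to Elongin, had 117 and 111 CPM in K19R bodies, against 347 and 322 CPM in FLAG-WT bodies (-1.55 ± 0.07, adjusted p = 2.0e-15). The catalytic subunits were both lower, Ezh2 with 89.4 and 92.1 CPM in K19R and 134 and 135 CPM in FLAG-WT bodies (-0.57 ± 0.07) and Ezh1 with 119.7 and 131 CPM in K19R and 203 and 213 CPM in FLAG-WT bodies (-0.73 ± 0.07). Phf19, a Polycomb-like subunit that binds methylated H3, had 7.58 and 7.11 CPM in K19R bodies, against 1.76 and 1.93 CPM in FLAG-WT bodies (2.00 ± 0.22). Rbbp7 and Lcor were lower (-0.74 and -1.04), and Rbbp4, Jarid2 and Mtf2 higher (0.52, 0.38 and 0.32). Mtf2 lost its call without the first K19R or the second FLAG-WT library. Suz12 and Aebp2 were called lower (-0.25 ± 0.08 and -0.27 ± 0.07) and had positive log2 fold changes with library totals only (0.11 and 0.09), where neither passed. Suz12 also lost its call without the second K19R library (adjusted p = 0.095) and without the first FLAG-WT library (0.064).

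Of 21 PRC1 genes, 7 were higher and 10 lower in K19R bodies, against 28.4% and 30.1% of all genes. Their median log2 fold change was -0.28, and 0.08 with library totals only, where 10 were higher and 5 lower. Phc1, a polyhomeotic subunit, had 295 and 293 CPM in K19R bodies, against 89.8 and 73 CPM in FLAG-WT bodies (1.85 ± 0.10). The chromodomain gene Cbx8 was lower (-1.90 ± 0.15), and Cbx6 and Cbx2 were higher (0.77 ± 0.08 and 0.62 ± 0.10). Rnf2, the ubiquitin ligase Ring1B, had 117 and 116 CPM in K19R bodies, against 228 and 201 CPM in FLAG-WT bodies (-0.88 ± 0.09).

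Signalling and metabolic lists also moved. They stand against 28.4% higher and 30.1% lower among all genes, and 44.9% and 16.7% with library totals only. Of 19 WNT targets and antagonists, 12 were higher and 3 lower in K19R bodies (median log2 fold change 0.81), and with library totals only 14 were higher and 1 lower. Lef1, a WNT effector, had 3.21 and 4.5 CPM in K19R bodies, against 0.472 and 0.642 CPM in FLAG-WT bodies (2.82 ± 0.28), and the secreted antagonist Sfrp1 24.8 and 26.6 CPM in K19R and 7.64 and 6.07 CPM in FLAG-WT bodies (1.89 ± 0.13). Wnt11 was lower (-1.99 ± 0.16), as were Wnt4 (-0.66 ± 0.25) and Dkk1 (-0.52 ± 0.12). Of 20 ERK feedback and target genes, 11 were lower and 3 higher (Etv1, Ccnd1 and Spred1), with a median of -0.34, against 9 lower, 6 higher and a median of 0.02 with library totals only.

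Of 23 cholesterol synthesis genes, 19 were lower and none was higher in K19R bodies, against 30.1% and 28.4% of all genes. Their median log2 fold change was -0.52. Most changes were small, since 3 of the 19 reached 2-fold, and with library totals only 10 were lower and 3 higher. Sc5d and Tm7sf2, enzymes of the late pathway, were lower (-1.17 ± 0.11 and -1.04 ± 0.15).

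Stress genes changed in both directions. As set out above, 30.1% of all genes were lower and 28.4% higher, and 62.3% of the highest of the 5 level groups were lower. None of the signalling, cholesterol and stress lists was compared with genes of matched level. Of 20 integrated stress response genes, 12 were lower and 5 higher in K19R bodies (median log2 fold change -0.53), against 8 lower and 7 higher with library totals only (median -0.17). Ddit3, the factor Chop, had 18.2 and 23.9 CPM in K19R bodies, against 113 and 125 CPM in FLAG-WT bodies (-2.49 ± 0.19), and Ppp1r15a, a phosphatase subunit that reverses the response, 28.9 and 31.2 CPM in K19R bodies, against 115 and 133 CPM in FLAG-WT bodies (-2.04 ± 0.12). Atf3 was lower as well (-2.02 ± 0.09), and Ddit4 and Slc7a11 were higher (1.27 ± 0.08 and 1.31 ± 0.45). Of 22 immediate early and heat shock genes, 13 were lower and 4 higher (median -0.58), against 11 lower and 8 higher with library totals only (median -0.22). The list as a whole took 1.530% and 1.599% of the counts in K19R bodies and 1.138% and 1.136% in FLAG-WT bodies. Fosb and Junb, members of AP-1, were lower (-1.91 ± 0.15 and -1.62 ± 0.08), and Hsp90ab1, a cytosolic chaperone, was higher (0.63 ± 0.07).

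Proliferation genes were higher by small amounts. Of 28 replication and mitosis genes, 15 were higher and 4 lower in K19R bodies (median log2 fold change 0.25), none by 2-fold. With library totals only 25 were higher and 2 lower. The shares of all genes were 28.4% and 30.1%, and 44.9% and 16.7% with library totals only. Mcm3, a subunit of the replicative helicase, had 219 and 234 CPM in K19R bodies, against 118 and 109 CPM in FLAG-WT bodies (1.00 ± 0.07), and Mki67, the marker of cycling cells, 274 and 279 CPM in K19R bodies, against 151 and 139 CPM in FLAG-WT bodies (0.93 ± 0.10). Of 24 hypoxia and glycolysis genes, 10 were lower and 7 higher, against 30.1% and 28.4% of all genes. With library totals only the balance turned to 7 lower and 12 higher. P4ha1, a collagen prolyl hydroxylase, had 209 and 204 CPM in K19R bodies, against 751 and 754 CPM in FLAG-WT bodies (-1.86 ± 0.07), and Vegfa, the vessel growth factor, 127 and 130.0 CPM in K19R bodies, against 271 and 289 CPM in FLAG-WT bodies (-1.13 ± 0.07).

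The genes with the largest changes at a level of at least 10 CPM in the higher line came from several of these groups. Among the 12 lower by the most, Eps8l3, a relative of the actin regulator Eps8, had 1.56 and 1.3 CPM in K19R bodies, against 26.6 and 25.8 CPM in FLAG-WT bodies (-4.20 ± 0.19, adjusted p = 2.0e-15). Fxyd2, the gamma subunit of the sodium pump, had 5.05 and 4.29 CPM in K19R bodies, against 80.6 and 82.6 CPM in FLAG-WT bodies (-4.13 ± 0.19). Serpinc1 (antithrombin), Tm6sf2 (a protein of hepatic lipid secretion), H2-Q10 (a secreted class I molecule of liver) and Apoa2 are genes of liver and visceral endoderm, and Card14, Xist, Marc1, Myl3 and Trim15 also belong to the set. Among the 12 higher by the most, 2 encode secreted guidance ligands. Sema3c had 16.5 and 18.4 CPM in K19R bodies, against 0.386 and 0.175 CPM in FLAG-WT bodies (5.86 ± 0.28). Slit3 had 66.3 and 77.8 CPM in K19R bodies, against 2.92 and 2.22 CPM in FLAG-WT bodies (4.78 ± 0.16, adjusted p = 5.6e-18). Uba1y, on the Y chromosome and close in sequence to its X copy, had 544 counts in K19R and 2 in FLAG-WT bodies, a ratio of 206 with an exact 95% interval of 56.8 to 1707. Others were Gap43, Lefty2, Thsd7a, Catsperg1, Fndc3c1, Actc1, Zic2 and Acta2.

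**Figure D4:**
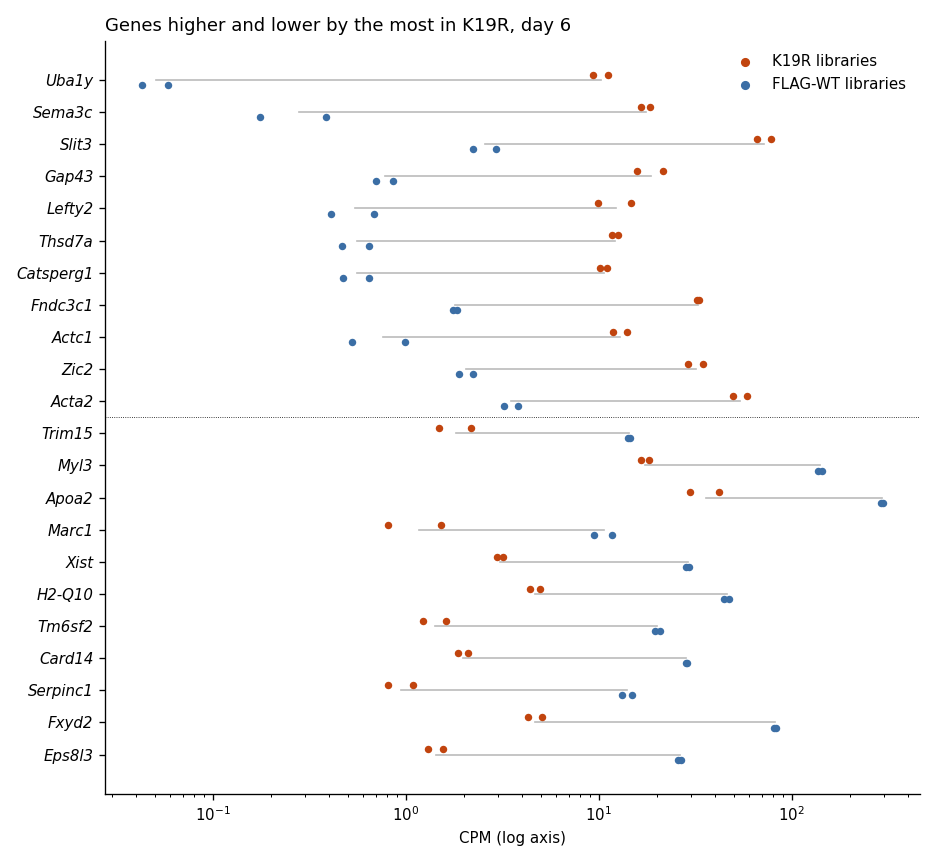
CPM (log axis) in the 4 day 6 libraries of 11 genes among the 12 higher and 11 among the 12 lower in K19R bodies by the most, at a mean of at least 10 CPM in the higher line and with no overlap of the lines; orange points are K19R libraries, blue points FLAG-WT libraries. Log2 fold changes run from -4.20 for Eps8l3 to 7.55 for Uba1y, whose FLAG-WT value rests on 2 counts.

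To place day 6 in the course, the K19R minus FLAG-WT difference at day 6 was compared with that at day 2 and at day 10. These comparisons share the day 6 libraries. From day 2 to day 6 the difference changed for 8503 genes (44.5%), becoming more positive for 4428 (23.2%) and more negative for 4075 (21.3%). From day 6 to day 10 it changed for 7440 genes (39.0%), more positive for 4650 (24.4%) and more negative for 2790 (14.6%).

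Nanog averaged 71.3 ± 0.996 CPM in K19R and 94 ± 0.316 CPM in FLAG-WT bodies at day 2, then 93 ± 7.28 CPM in K19R and 11.5 ± 3.09 CPM in FLAG-WT bodies at day 6 (SD, n = 2 each). Nanog was slightly lower in K19R bodies at day 2 and higher at day 6, a change of the log2 difference of 3.39 ± 0.16 (adjusted p = 1.7e-14). Sox2 moved likewise, at 353 ± 23.8 CPM in K19R and 337 ± 1.84 CPM in FLAG-WT bodies on day 2 and 104 ± 11 CPM in K19R and 22.9 ± 4.23 CPM in FLAG-WT bodies on day 6, a change of 2.11 ± 0.13. By day 10 Sox2 was at 103 ± 10.2 CPM in K19R and 2.33 ± 0.34 CPM in FLAG-WT bodies, so the gap opened further (3.29 ± 0.19). Across the 12 core pluripotency genes, the difference became more positive for 8 and more negative for 1 from day 2 to day 6, and more positive for 11 from day 6 to day 10.

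Endoderm regulators closed part of a gap that was wider at day 2. Gata4 averaged 20.4 ± 0.619 CPM in K19R and 214 ± 3.78 CPM in FLAG-WT bodies at day 2, then 185 ± 4.44 CPM in K19R and 316 ± 26.3 CPM in FLAG-WT bodies at day 6, a change of the log2 difference of 2.62 ± 0.13 (adjusted p = 1.9e-14). Foxa2, Sox17 and Lama1 changed in the same direction (1.16 ± 0.18, 1.32 ± 0.18 and 1.89 ± 0.19), as did Vegfa (2.25 ± 0.11). Of the 18 endoderm regulators, the difference became more positive for 13 and more negative for 1 from day 2 to day 6, and more positive for 15 and more negative for none from day 6 to day 10.

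For the serum protein genes the difference narrowed after day 6. From day 6 to day 10 the difference became more positive for 22 of the 28 and more negative for none, whereas from day 2 to day 6 it did so for 6 and 6. Apoa1 averaged 689.8 ± 60.5 CPM in K19R and 1949.7 ± 24.9 CPM in FLAG-WT bodies at day 6, then 1894 ± 116 CPM in K19R and 2125 ± 64.1 CPM in FLAG-WT bodies at day 10, a change of 1.33 ± 0.34 (adjusted p = 0.0028). Afp did not pass in either interval (-2.19 ± 0.94 and 0.28 ± 0.63). Hox genes showed the same direction, with 13 of 30 more positive and none more negative from day 6 to day 10. For the neuron genes, 15 of 19 became more positive and none more negative from day 2 to day 6, and 4 and 2 from day 6 to day 10. Cholesterol synthesis genes moved in the negative direction between day 2 and day 6, with 21 of 23 more negative and none more positive.

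**Figure D5:**
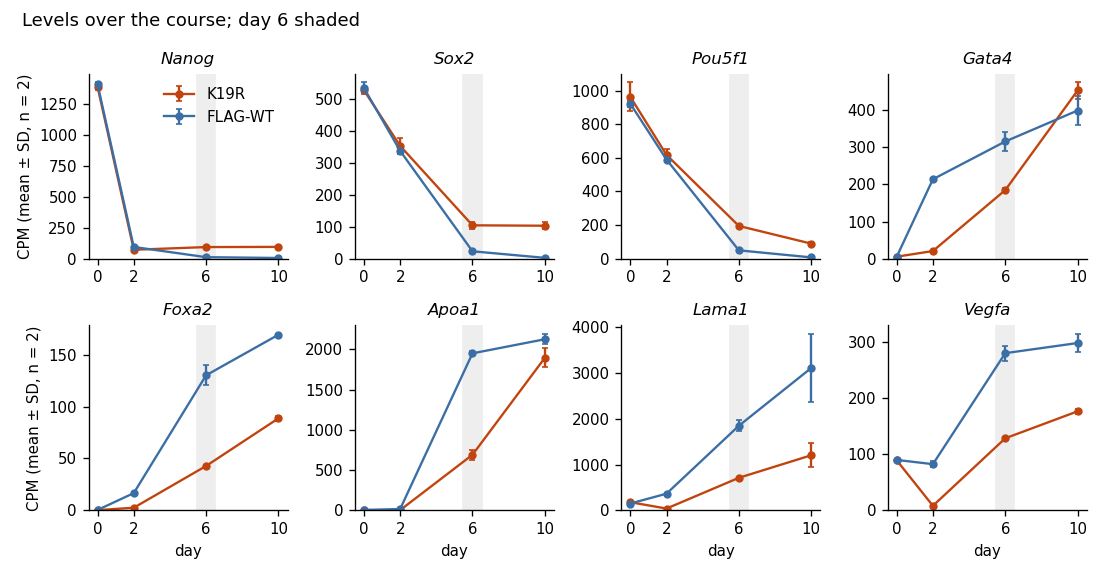
Mean CPM ± SD (n = 2) of 8 genes in K19R (orange) and FLAG-WT (blue) cells from day 0 (mESCs) to days 2, 6 and 10 (embryoid bodies), with day 6 shaded. Sox2 and Pou5f1 did not pass at day 2, where Nanog was lower in K19R bodies, and all 3 were higher at days 6 and 10; Gata4, Foxa2, Apoa1, Lama1 and Vegfa were lower in K19R bodies at day 6, and Gata4 averaged 454 ± 22 CPM in K19R and 399.7 ± 38.4 CPM in FLAG-WT bodies at day 10.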

How the data were processed

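RNA was measured by total RNA-seq. The deposited table holds whole, unscaled counts of read pairs for each gene name, made by the authors with featureCounts 1.6.3 over exons of GENCODE vM19 on GRCm38 with no strand option, per the file headers. Counts of overlapping genes and of near-identical copies are therefore uncertain. The submitters' processing notes also name STAR 2.7.0c, Trim Galore 0.6.0, FastQC 0.11.7 and bcl2fastq 2.17. The 2 wildtype mESC libraries of the series were not used here. The exon length column of the deposited table is another value per gene and entered no test.

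Of 54429 names, 19092 genes passed filterByExpr (count minimum 10 per library, 15 in total). The 16 FLAG-EED libraries entered 1 fit in edgeR 4.0.16 (R 4.3.3; glmQLFit, TMM, 8 groups, 8 residual degrees of freedom, biological coefficient of variation 0.062), tested two-sided with glmQLFTest and adjusted over all genes by Benjamini-Hochberg at 0.05. The standard error is the absolute log2 fold change over the square root of F. Replicates differed by more than sampling noise (chi-square over its degrees of freedom 2.31 to 11.4; Pearson correlations 0.996 to 0.997), so each counted once. The fit was tested on simulated day 6 data over 18761 genes. It recovered 88 of 100 genes changed by a log2 of 1 and 97 of 100 changed by 2, with 9 false calls. A gene dropped by the filter counted as not recovered. Only these genes differed between the lines there, with as many raised as lowered, and all genes had the same spread. The simulation therefore does not measure false calls where most genes change, scaling factors differ between the lines or the spread varies by gene.

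Members of the comparison and the 39 gene lists (766 of 769 names in the table, 708 tested) were chosen with earlier results of these data known. Genes are named from a list of lead genes and PRC2 genes; as the 12 highest and 12 lowest log2 fold changes among called genes at a mean of at least 10 CPM in the higher line, with no overlap of the lines and leaving out predicted and clone names; as up to 4 members of each list with the largest called change and members at 0 counts in a line; and where a count is 5 or fewer. Other genes were named after their values were seen, and some genes that met the rule are not reported here. Promoters are RefSeq sequences of GRCm38.p6. Alternatives were DESeq2 1.42.0, RLE and library totals scaling, no filter, the day 6 libraries alone, each library left out and a replicate block. Intervals and floors (3 counts per library) cover counting error only.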

Additional observations from a re-analysis of the deposited data

Results flagged for a closer look

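For 12 genes picked to follow the course, the K19R minus FLAG-WT log2 difference at day 6 was tested against that at day 2 and at day 10, and 11 of them changed in at least 1 interval with edgeR's quasi-likelihood test, adjusted over all genes. From day 2 to day 6 the difference became more positive for the pluripotency genes Nanog (by 3.39), Sox2 (2.11) and Pou5f1 (1.91), and for Fgf5 (1.18) and T (3.76, which rests on 1 count over the FLAG-WT libraries at day 6). From day 6 to day 10 it did so again for Sox2 (3.29), Fgf5 (3.03), Pou5f1 (1.65) and Nanog (1.22). T did not pass in that interval (5.14 ± 2.75, adjusted p = 0.15).

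For genes that were lower in K19R bodies at day 2, the difference moved toward 0 from day 2 to day 6, by 2.62 for Gata4, 2.25 for Vegfa, 1.89 for Lama1, 1.56 for Apoa1, 1.32 for Sox17 and 1.16 for Foxa2. It moved on in the same direction from day 6 to day 10, by 1.33 for Apoa1, 0.96 for Gata4, 0.94 for Sox17, 0.67 for Foxa2 and 0.37 for Vegfa, while Lama1 did not pass (0.01 ± 0.18, adjusted p = 0.99).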

How the results depend on the processing

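The number of genes called at day 6 (11172) ran from 9711 to 9945 with 1 library left out, and was 11156 with RLE size factors, 10965 with no filter, 11145 with the day 6 libraries alone and 10478 with DESeq2. Higher calls ran from 4425 to 4771 and lower calls from 5030 to 5362 with 1 library left out. Library totals only moved the split to 8581 higher and 3189 lower, and turned the sign of Suz12 (0.11) and Aebp2 (0.088). The changes of the difference numbered 7308 to 8069 from day 2 to day 6 and 6355 to 7282 from day 6 to day 10 with 1 library left out, against 8503 and 7440. Deviations of same-numbered libraries correlated at 0.065, -0.064, 0.101 and -0.179 at days 0, 2, 6 and 10, so the numbers were not taken to pair the samples. With the replicate number as a block, 10868 genes were called at day 6, 8216 and 7077 changed between days, and no call of the 213 named genes was lost; with the day 10 numbers crossed, chosen after seeing the data, 7570 changed. Of the 213 named genes, 7 lost their call with DESeq2 and 6 to 12 with 1 library left out, and none of these turned in sign. With library totals only, 7 lost their call with the same sign, Suz12 and Aebp2 lost it with the other sign, and 2 gained a call (Eed and Fabp7). With the day 6 libraries alone, 192 of the 213 named genes were compared, and none of these lost its call. Genes under 1 CPM rest on few counts, and 2 libraries per line limit every comparison.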

Other observations

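Of 20 germ cell genes tested, 10 were higher and 4 lower in K19R bodies at day 6, against 28.4% and 30.1% of all genes. The list's summed share of counts went the other way. It was 0.0401% and 0.0369% in K19R bodies and 0.0640% and 0.0613% in FLAG-WT bodies. Tdrd12, a tudor protein of the piRNA pathway, had 23.5 and 21.6 CPM in K19R bodies, against 3.6 and 2.51 CPM in FLAG-WT bodies (log2 fold change 2.85 ± 0.15), and Dazl, an RNA-binding protein of germ cells, 12 and 9.25 CPM in K19R bodies, against 3.13 and 2.04 CPM in FLAG-WT bodies (1.99 ± 0.17). Taf7l, a germ cell form of a TFIID subunit, was lower (-2.28 ± 0.14). Of 32 imprinted genes, 9 were higher and 12 lower, shares near those of all genes (28.4% and 30.1%), and with library totals only the balance turned to 15 higher and 8 lower. The genes Magel2, Nnat and Snrpn, all expressed from the paternal allele, were higher (4.10 ± 0.39, 2.71 ± 0.14 and 1.75 ± 0.09). Dlk1, also expressed from the paternal allele, was lower, with log2 fold changes from -1.45 to -1.22 with 1 library left out. The maternally expressed RNA Meg3 had 2446 and 2506 CPM in K19R bodies, against 5666 and 6522 CPM in FLAG-WT bodies (-1.30 ± 0.11). These genes thus did not split by parental allele.

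Of 14 genes of the 2-cell-like state, 8 were lower and none was higher in K19R bodies, all at low levels, and some have near-identical copies. The lower count was 4 without the second K19R library, 3 without the first FLAG-WT library and 4 with library totals only. Pramel7 had 0.561 and 0.633 CPM in K19R bodies, against 1.8 and 1.46 CPM in FLAG-WT bodies (-1.46 ± 0.35). From day 6 to day 10 the difference became more positive for all 14. Of 11 neural crest genes, 5 were higher and 2 lower, and 1 was lower with library totals only or without the first K19R library. Sox10, which defines neural crest and its glia, had 4.69 and 6.02 CPM in K19R bodies, against 0.558 and 0.817 CPM in FLAG-WT bodies (2.99 ± 0.34). Of 20 trophoblast genes, 8 were higher and 8 lower (8 and 6 with library totals only), and of 19 surface ectoderm genes 6 and 6 (10 and 5). Among all genes 28.4% were higher and 30.1% lower. Of 11 blood genes, 5 were higher and Runx1 was lower (-0.92 ± 0.14), and Gfi1b had 22 counts in K19R and 0 in FLAG-WT bodies, at least 2.76-fold higher.

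Among the CBP, P300 and histone acetylation genes, 8 of 21 were higher and 6 lower, against 28.4% and 30.1% of all genes. Their median log2 fold change was 0.14. With library totals only 14 were higher and 3 lower (median 0.50). Hdac9, a class IIa deacetylase, had 5.09 and 5.42 CPM in K19R bodies, against 0.687 and 0.408 CPM in FLAG-WT bodies (3.20 ± 0.30), and Sirt2, a deacetylase of the sirtuin family, 56.1 and 59.3 CPM in K19R bodies, against 168 and 161 CPM in FLAG-WT bodies (-1.51 ± 0.08). Of 18 BMP ligands and targets, 4 were higher and 7 lower, and of 17 G1 cyclins and CDK inhibitors 5 and 7, against the same shares of all genes. With library totals only both balances turned, to 7 higher and 5 lower and to 9 higher and 5 lower. That of all genes turned as well, to 44.9% higher and 16.7% lower. The 18 p53 pathway genes gave 9 higher and 3 lower, and 15 and 2 with library totals only; the higher count was 5 without the second K19R library and 4 without the second FLAG-WT library. Of 9 DNA methylation enzymes, 3 were higher (Dnmt1, Dnmt3b and Tet1) and 3 lower (Dnmt3a, Dnmt3l and Tet3), against 28.4% and 30.1% of all genes. With library totals only 5 were higher and none lower.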
